A study of Homo sapiens with 24 samples.

Results

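The host transcripts of small nucleolar RNAs (snoRNAs) were followed in acute myeloid leukemia cells treated with 8CA/8AA. They were the 9 rows, of 23354 in the deposited count table, that carry the symbols SNHG1, SNHG5, SNHG6, SNHG8, SNHG12, SNHG15, GAS5, ZFAS1 and EPB41L4A-AS1. All 9 passed the filter on low counts in both cell lines. 8CA is 8-chloro-adenosine and 8AA is 8-amino-adenosine, adenosine analogs that differ from each other in the group carried at carbon 8 of the base, chloro or amino. MV4-11 and KG-1a, each an established AML cell line of wild-type label grown in culture, were left untreated or were treated with 1 μM 8CA or 1 μM 8AA, and were harvested at 8 h or 24 h. This gave 12 groups of 2 libraries (A and B), 24 in all. No label says that A and B came from separate cultures, so p-values measure only the spread between these libraries, which may be technical. 8CA and 8AA were compared with the same untreated libraries of their line and time point.

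snoRNAs guide chemical modification of ribosomal and other RNAs, and in human cells most of them are cut from the introns of longer host transcripts. What remains of a non-coding host after splicing has no long open reading frame. Ribosomes enter it nonetheless, and many such RNAs are degraded by nonsense-mediated decay (NMD), a pathway that depends on translation, so that their steady level is low for the rate at which they are made. Many hosts also start with a cytidine followed by a run of pyrimidines, the 5′ terminal oligopyrimidine (TOP) start shared with ribosomal protein mRNAs. GAS5 was named for its accumulation in growth-arrested cells.

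Libraries held 18633963 to 24520078 counts each. The spread of a replicate pair over genes (chi-square per degree of freedom) was 1.43 to 5.20 in 11 groups and 12.3 in KG-1a with 8AA at 24 h, so host values and list counts that rest on that group are also given without each of its libraries. Of 9 myeloid markers, 8 reached a CPM (read counts scaled to library size by TMM within a line) of 1 in MV4-11, all but CD34, and 5 in KG-1a, where CD33, FLT3, MPO and MEIS1 did not. Of 13 markers of other cell types, 2 reached that level in MV4-11 (summed CPM 25.4 to 33.8) and 3 in KG-1a (222 to 372), namely CD3D, CD3E and PECAM1. Levels below are in CPM. A called change had an adjusted p under 0.05 in edgeR's quasi-likelihood test over all genes tested (12800 in MV4-11, 12711 in KG-1a).

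The sequences around the start sites are shown for the hosts that the results turn on, because SNHG5, ZFAS1 and SNHG12 share letters there that the other windows do not hold together. Of the 9, 7 had a start in the RefSeq table (GRCh38.p14). Each window below runs from 45 bases before the start to 50 bases from it on, 5′ to 3′. Capitals mark the letters TATATAA before the start and an unbroken run of C and T that opens with C at the start and is more than 4 letters long. SNHG5, ZFAS1 and SNHG12 hold both. The contrast with the other windows rests on this exact word and this cutoff. The SNHG1 window holds the similar tatttaa before its start and a run of 3 letters at it. The SNHG8 window holds tataaga before its start, and its letters cctttc run across the start, where only the last letter counts.
SNHG5 (chr6:85678684-85678778, minus strand): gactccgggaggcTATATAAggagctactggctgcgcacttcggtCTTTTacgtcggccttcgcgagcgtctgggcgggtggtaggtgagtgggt
ZFAS1 (chr20:49278597-49278691, plus strand): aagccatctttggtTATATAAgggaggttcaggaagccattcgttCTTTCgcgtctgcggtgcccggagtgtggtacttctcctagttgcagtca
SNHG12 (chr1:28581824-28581918, minus strand): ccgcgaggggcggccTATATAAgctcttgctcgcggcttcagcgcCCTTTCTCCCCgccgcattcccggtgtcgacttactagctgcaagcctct
SNHG1 (chr11:62855836-62855930, minus strand): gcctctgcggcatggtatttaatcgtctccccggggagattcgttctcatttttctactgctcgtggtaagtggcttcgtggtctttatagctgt
SNHG8 (chr4:118278717-118278811, plus strand): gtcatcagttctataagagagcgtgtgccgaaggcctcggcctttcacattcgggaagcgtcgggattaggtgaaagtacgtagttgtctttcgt
EPB41L4A-AS1 (chr5:112160481-112160575, plus strand): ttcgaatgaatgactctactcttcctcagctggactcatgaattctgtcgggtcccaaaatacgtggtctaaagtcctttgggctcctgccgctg
For GAS5 the RefSeq start lies upstream of the most common start among its GENCODE v29 transcripts (6 of 29, first base 173867989 of chromosome 1, minus strand, GRCh38). From that base on, the first 30 bases are as follows.
GAS5 transcript start: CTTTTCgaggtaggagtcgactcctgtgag
The run of C and T depends on which start is read. At their own most common GENCODE v29 starts it is 6 letters in GAS5 and 5 in SNHG5, but 2 in SNHG12 (2 of 17 transcripts) and 1 in ZFAS1 (4 of 10), where the RefSeq start of GAS5 has 0.

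TATATAA was searched in the 50 bases before the start. It stood on the strand of the gene in 3 of the 7 windows, against 0.672% of 35116 promoters in the table, and on either strand in 0.806% of them. On the strand of the gene it stood in 0 of 16 promoters of other non-coding snoRNA hosts and in 2 of 53 of protein-coding ones. In ZFAS1 the reverse strand also matched, at letters that overlap the first match. The first T stood at -32 in SNHG5, -31 in ZFAS1 and -30 in SNHG12. A C followed by at least 4 letters of C or T exactly at the start was found in 3 of the 7, against 4.07% of all promoters, 25% of the 16 of other non-coding hosts and 37.7% of the 53 of protein-coding hosts. The run was 11 letters long in SNHG12 and 5 in SNHG5 and in ZFAS1. With 8CA at 24 h SNHG5 and ZFAS1 rose in both lines and SNHG12 fell. With 8AA in KG-1a SNHG5 was not called. A match is a description of letters and not a site that was tested.

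In the coordinates of the deposited table, SNHG1 lies at chr11:62619460-62623360 and SNHG5 at chr6:86386725-86388451, both on the minus strand. SNHG8 lies at chr4:119199917-119200978 on the plus strand and SNHG12 at chr1:28905050-28908383 on the minus strand. GAS5 lies at chr1:173833039-173837125 on the minus strand and ZFAS1 at chr20:47894715-47905795 on the plus strand. SNHG6 (chr8:67834165-67837777) and SNHG15 (chr7:45022627-45026259) are on the minus strand, and EPB41L4A-AS1 (chr5:111496223-111498198) is on the plus strand. The submitters' processing notes name both hg19 and hg38, and these positions differ from the GRCh38 starts above, so the coordinate systems are not mixed here. GENCODE v29 lists 4 to 29 transcripts for each host, 13 of 25 for SNHG1, 10 of 17 for SNHG12 and 19 of 29 for GAS5 being retained-intron forms. Rows on the opposite strand overlap SNHG6 (MCMDC2), SNHG12 (TRNAU1AP), GAS5 (GAS5-AS1), ZFAS1 (ZNFX1) and EPB41L4A-AS1 (EPB41L4A). Strand use in counting is not given in the sources used here, and reads in these overlaps cannot be told apart.

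Untreated cells of the 2 lines already differed in these hosts, as they did in most genes. Per kilobase of exon, SNHG6 was the most abundant host in both lines, at 377 ± 15.02 CPM per kb in MV4-11 and 237 ± 9.79 in KG-1a (SD, n = 4 untreated libraries). In MV4-11 it was followed by ZFAS1 (119 ± 3.53), GAS5 (104 ± 3.29), SNHG8 (99.2 ± 3.96), SNHG1 (58.1 ± 1.85) and SNHG5 (45.2 ± 2.49). EPB41L4A-AS1 (18.8 ± 1.32), SNHG15 (17.4 ± 0.329) and SNHG12 (15.8 ± 1.31) were the lowest. GAS5 and SNHG8 overlapped in range in MV4-11, as did each neighbour among the lowest 3. In KG-1a the order below SNHG6 was SNHG8 (123 ± 3.81), SNHG1 (119 ± 1.42), GAS5 (100.1 ± 5.01), SNHG5 (95.5 ± 7.49), ZFAS1 (49.8 ± 2.65), SNHG15 (23.9 ± 1.21), SNHG12 (8.75 ± 0.587) and EPB41L4A-AS1 (6.95 ± 0.153). There SNHG8 overlapped SNHG1 and GAS5 overlapped SNHG5. These SDs and ranges cover 2 libraries at 8 h and 2 at 24 h, so they take in culture time. The levels were scaled within each line, and the differences between lines below come from the fit of 24 libraries. Between untreated lines all 9 were called, 5 higher and 4 lower in MV4-11, where 87.4% of 14055 genes were called in either direction. The count of hosts called was thus near the background. EPB41L4A-AS1 (log2 difference 1.53, SE 0.076), ZFAS1 (1.35, SE 0.054), SNHG12 (0.94, SE 0.055) and SNHG6 (0.76, SE 0.036) were higher in MV4-11 by the widest margins. SNHG5 (-0.98, SE 0.038) and SNHG1 (-0.94, SE 0.033) were lower there. GAS5 differed least (0.15, SE 0.033), and its call was lost with library-size scaling only.

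**Figure D1:**
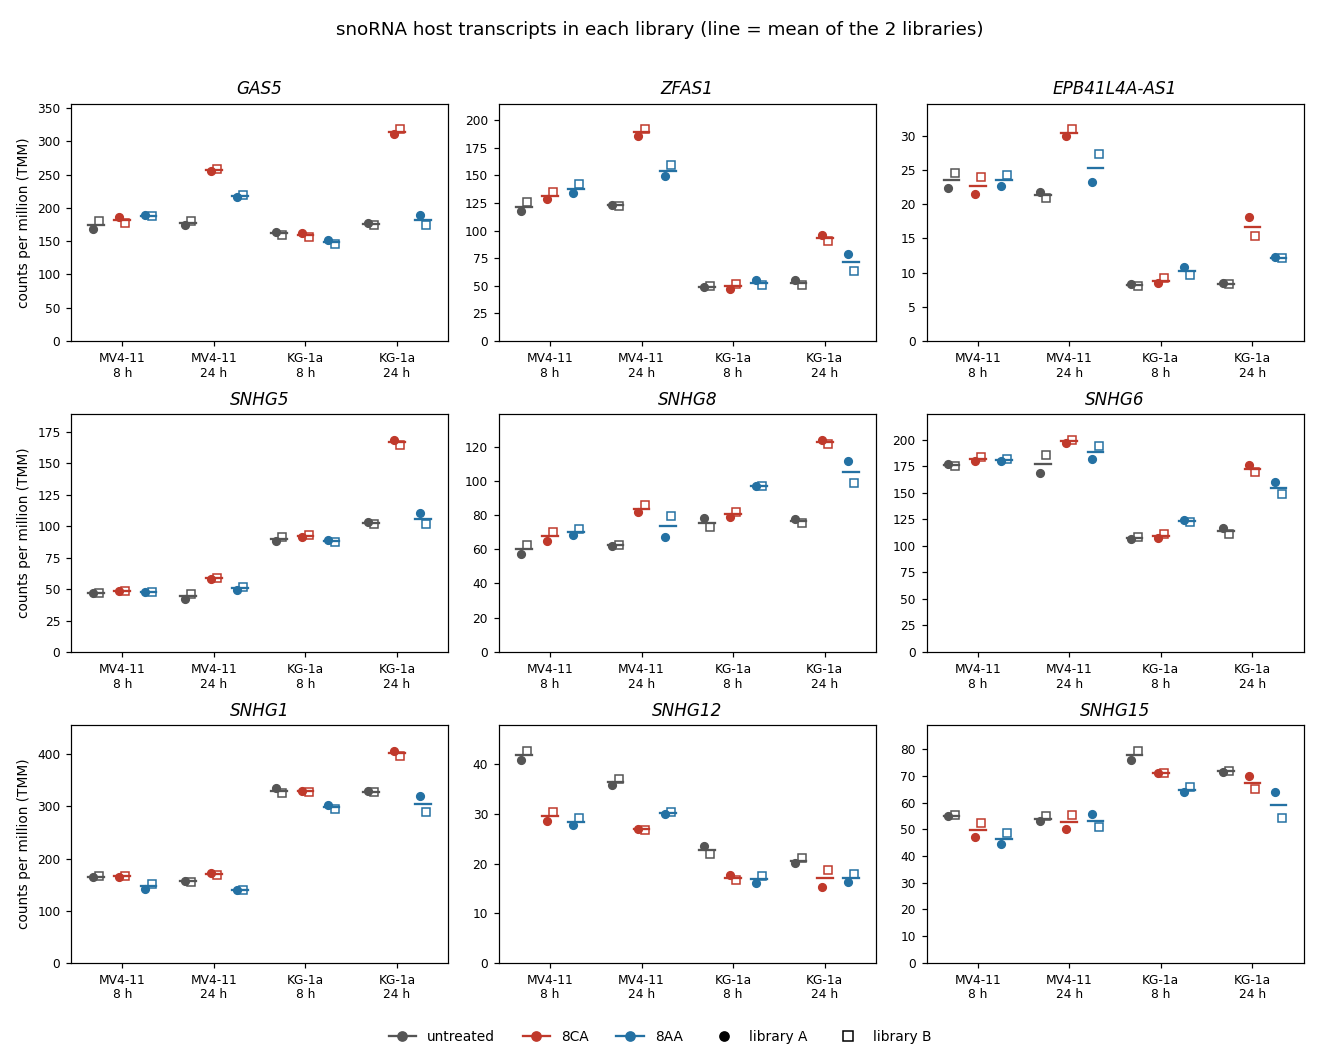
Level of each host (CPM, TMM scaled) on a linear axis from 0, by cell line and time. Filled circles are library A, open squares library B and lines the mean of the 2 libraries; grey is untreated, red 8CA and blue 8AA. At 24 h the 8CA libraries of GAS5 lie at 255 and 258 in MV4-11 and at 311 and 318 in KG-1a, above untreated and 8AA libraries, while SNHG12 lies below its untreated libraries throughout.

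At 24 h 8CA raised 7 of the 9 hosts and lowered SNHG12 in each cell line. The median log2 fold change of the 9 was 0.41 in MV4-11 and 0.68 in KG-1a, beside 0.0022 and 0.0065 over all genes tested. In MV4-11, 21.2% of all genes were called higher and 22.7% lower. In KG-1a, 23.4% were called higher and 24% lower.

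GAS5 rose in both lines. In MV4-11 its level was 175 and 181 CPM untreated and 255 and 258 with 8CA, and in KG-1a it was 177 and 175 untreated and 311 and 318 with 8CA. No treated library overlapped an untreated one. Over all genes, both 8CA libraries lay above both untreated ones for 36.6% in MV4-11 and 38.8% in KG-1a. Of the 9 hosts, 7 did so in each line. The log2 fold change of GAS5 was 0.53 in MV4-11 (SE 0.045, edgeR adjusted p = 2.72e-07) and 0.84 in KG-1a (SE 0.048, adjusted p = 3.2e-09). ZFAS1, which is transcribed away from ZNFX1 and hosts SNORD12 family snoRNAs, went from 123 and 122 CPM to 186 and 192 in MV4-11. In KG-1a it went from 54.8 and 50.4 to 96.2 and 90.4. Its fold change was 1.54 in MV4-11 (adjusted p = 2.11e-07) and 1.77 in KG-1a (adjusted p = 1.46e-06), again with no overlap. EPB41L4A-AS1, host of SNORA13, was the least abundant of the 9 in KG-1a and showed the largest change there. It rose from 8.42 and 8.32 CPM to 18.1 and 15.3, a log2 fold change of 1.00 (SE 0.106, adjusted p = 2.04e-06). In MV4-11 it rose from 21.8 and 20.8 to 29.9 and 31.0, or by 0.51 (SE 0.0875, adjusted p = 0.000219).

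SNHG5, host of the SNORD50 pair, rose from 41.8 and 46.4 CPM to 57.8 and 59.1 in MV4-11 and from 103 and 102 to 169 and 165 in KG-1a. The log2 fold changes were 0.41 (SE 0.058, edgeR adjusted p = 4.92e-05) and 0.70 (SE 0.050, adjusted p = 3.38e-08). SNHG8, host of SNORA24, rose too, from 61.8 and 62.7 to 81.6 and 85.7 in MV4-11 (log2 0.43, adjusted p = 0.000204) and from 77.4 and 75.2 to 124 and 121 in KG-1a (0.68, adjusted p = 2.48e-07). In both hosts the treated libraries stood above the untreated ones in each line. SNHG6, host of SNORD87, rose in KG-1a from 117 and 111 to 176 and 169.5, a log2 fold change of 0.60 (SE 0.050, adjusted p = 1.78e-07). In MV4-11 it went from 168 and 185 to 197 and 199.9, or by 0.16 (SE 0.050, adjusted p = 0.014). SNHG1, host of a cluster of box C/D snoRNAs, rose in KG-1a from 329 and 327 to 407 and 397 (0.29, SE 0.048, adjusted p = 0.00013). In MV4-11 it went from 157 and 156 to 173 and 168 (0.12, SE 0.044, adjusted p = 0.0317). The MV4-11 calls of SNHG6 and SNHG1 did not hold in every setting. SNHG6 lost its call without untreated replicate A (log2 0.10, adjusted p = 0.16) or 8CA replicate B (0.16, adjusted p = 0.062). SNHG1 lost it without untreated replicate A (0.13, adjusted p = 0.074) or B (0.12, adjusted p = 0.12), without 8CA replicate A (0.10, adjusted p = 0.162), and in DESeq2's Wald test (adjusted p = 0.062). SNHG15, host of SNORA9, was not called in either line, at log2 -0.035 in MV4-11 (95% interval -0.18 to 0.11) and -0.086 in KG-1a (-0.23 to 0.058).

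With 8AA for 24 h, 4 of the 9 hosts were called higher and 2 lower in each line. SNHG8 and ZFAS1 were higher and SNHG12 was lower in both. The median log2 fold change was 0.20 in MV4-11, where 13.9% of all genes were called higher and 15.3% lower. It was 0.048 in KG-1a, where 25.4% were called higher and 26.6% lower. The count of 2 lower was thus near the background in both lines.

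In MV4-11 with 8AA at 24 h, GAS5 rose from 175 and 181 CPM to 216 and 219 (log2 0.29, SE 0.045, edgeR adjusted p = 0.000193). ZFAS1 rose from 123 and 122 to 149 and 159 (0.33, SE 0.052, adjusted p = 0.00022). Neither overlapped its untreated libraries. Of the 9 hosts, 5 lay above theirs, beside 33.2% of all genes. SNHG5 reached 49.1 and 52.0 CPM (0.20, SE 0.059, adjusted p = 0.021) and SNHG8 reached 67.2 and 79.6 (0.24, SE 0.073, adjusted p = 0.0226). Both calls were sensitive to single libraries. SNHG5 lost its call in DESeq2's Wald test (adjusted p = 0.0717) and without untreated replicate A (0.12, adjusted p = 0.216) or 8AA replicate B (0.15, adjusted p = 0.15). SNHG8 lost it without untreated replicate A (0.22, adjusted p = 0.106) or B (0.24, adjusted p = 0.0986) and without 8AA replicate B (0.11, adjusted p = 0.321). The count of hosts called higher was 2 without untreated replicate A or 8AA replicate B. EPB41L4A-AS1 stood at 23.2 and 27.3 CPM and missed the threshold (0.24, SE 0.090, adjusted p = 0.0527), but passed it without 8AA replicate A (0.35, adjusted p = 0.0249) and in 7 of 9 alternative settings (lowest adjusted p 0.0187, with library size only). SNHG1 fell from 157 and 156 to 139.3 and 138.9, a log2 change of -0.17 (SE 0.044, adjusted p = 0.0092). SNHG6 (0.089, 95% interval -0.017 to 0.195) and SNHG15 (-0.019, -0.17 to 0.13) were not called, though SNHG6 was with library-size scaling only (0.14, adjusted p = 0.0314).

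In KG-1a with 8AA at 24 h, 4 of the 7 hosts raised by 8CA rose and 3 were not called. EPB41L4A-AS1 rose to 12.3 and 12.1 CPM from 8.42 and 8.32 (log2 0.54, SE 0.11, edgeR adjusted p = 0.000724), and SNHG8 to 112 and 98.9 from 77.4 and 75.2 (0.47, SE 0.059, adjusted p = 8.61e-06). SNHG6 rose to 160 and 149 from 117 and 111 (0.43, SE 0.050, adjusted p = 3.1e-06), and ZFAS1 to 78.9 and 63.8 from 54.8 and 50.4 (0.44, SE 0.086, adjusted p = 0.000472). These 4 stayed above their untreated libraries, as did 36.8% of all genes, so that 4 of the 9 is near the background. GAS5, at 189 and 174 CPM against 177 and 175, and SNHG5, at 111 and 101 against 103 and 102, overlapped them. Their log2 changes were 0.045 (95% interval -0.058 to 0.15) and 0.048 (-0.060 to 0.16), which exclude rises of the size seen with 8CA. With library-size scaling only, both were called, at 0.14 (adjusted p = 0.0169 and 0.0199). SNHG15 fell from 71.4 and 72.0 to 64.1 and 54.3 (-0.27, SE 0.068, adjusted p = 0.00334). SNHG1 went from 329 and 327 to 321 and 290.1 (-0.10, SE 0.048, adjusted p = 0.0846). This is the group whose 2 libraries differ most. Without its replicate A, SNHG1 was called lower (-0.18, adjusted p = 0.000354), SNHG12 was not (-0.21, adjusted p = 0.105), SNHG15 was at -0.40 and GAS5 and SNHG5 at -0.018 and -0.019 with no call, and the 4 rises lay between 0.27 and 0.52. Without its replicate B, the 4 rises lay between 0.48 and 0.58, SNHG15 was at -0.16, SNHG12 at -0.34 and SNHG1 at -0.034. GAS5 and SNHG5 were then at 0.099 and 0.11 with no call. The counts were 4 higher and 2 lower in each case.

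**Figure D2:**
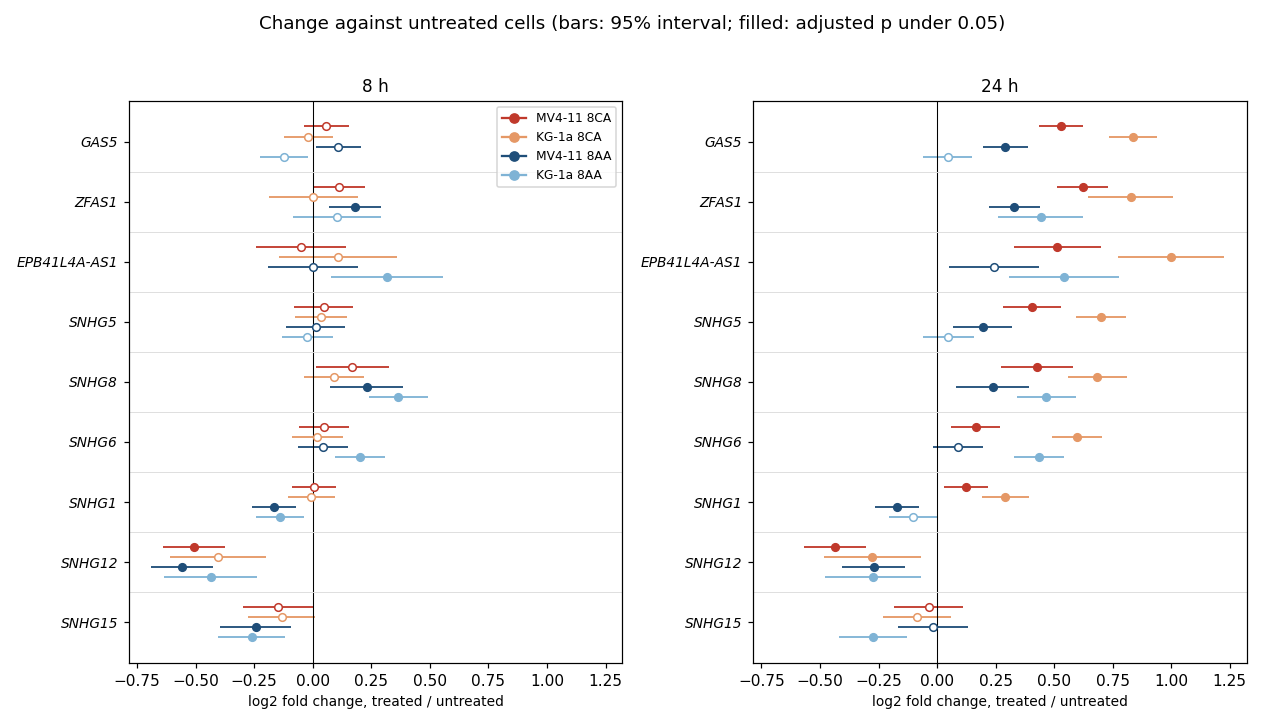
Log2 fold change of each host against untreated cells of the same line and time, at 8 h (left) and 24 h (right). Points are edgeR estimates, bars 95% intervals, filled points have an adjusted p under 0.05, and each color is a line and drug. At 24 h the 8CA estimates run up to 1.00 for EPB41L4A-AS1 in KG-1a, and SNHG12 lies left of 0 in every comparison.

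SNHG12 was lower than untreated in each of the 8 comparisons and was called in 7 of them. It hosts H/ACA box snoRNAs such as SNORA44 and SNORA61 and the box C/D SNORD99. At 8 h its level in MV4-11 was 41.0 and 42.8 CPM without drug. It was 28.7 and 30.3 after 8CA and 27.8 and 29.1 after 8AA. The log2 fold changes were -0.51 (SE 0.063, edgeR adjusted p = 0.000192) and -0.56 (SE 0.063, adjusted p = 1.19e-05), in place 12529 and 12458 of 12800 genes ordered from the highest. KG-1a cells went from 23.5 and 22.0 to 17.6 and 16.7 with 8CA (-0.40, SE 0.096, adjusted p = 0.0596, not called, though called in 4 of 9 alternative settings) and to 16.1 and 17.5 with 8AA (-0.44, SE 0.094, adjusted p = 0.00214). In these comparisons both treated libraries of SNHG12 lay below both untreated ones, as they did for 24.5% to 33.4% of all genes. At 24 h the level in MV4-11 was 35.9 and 37.0 untreated, 27.0 and 26.9 with 8CA (-0.44, SE 0.063, adjusted p = 5.06e-05) and 29.999 and 30.4 with 8AA (-0.27, SE 0.063, adjusted p = 0.00435). In KG-1a at 24 h it was 20.1 and 21.1 untreated, 15.4 and 18.7 with 8CA (-0.28, SE 0.097, adjusted p = 0.0279) and 16.3 and 17.8 with 8AA (-0.27, SE 0.096, adjusted p = 0.0258). The KG-1a calls at 24 h were the least firm. With 8CA the call was lost without untreated replicate A (-0.33, adjusted p = 0.0525) or B (-0.24, adjusted p = 0.138) or 8CA replicate A (-0.14, adjusted p = 0.325), and with 8AA without untreated replicate B (-0.24, adjusted p = 0.13) or 8AA replicate A (-0.21, adjusted p = 0.105). Without untreated replicate B, 1 host was left as lower with 8AA. Both were lost with upper-quartile factors, with a fit of 6 libraries and in DESeq2's Wald test, and the 8AA call also with library-size scaling only.

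At 8 h the other hosts moved little. With 8CA in MV4-11, SNHG12 was the only host called by edgeR, and 0 were called higher, beside 4.58% of all genes called higher and 5.77% lower. At an unadjusted p under 0.05, 2 were higher and 1 lower, and DESeq2 called 0 higher and 1 lower. With 8CA in KG-1a edgeR called 0 in either direction, beside 0.7% of genes higher and 0.181% lower. There 0 were higher and 1 lower at an unadjusted p under 0.05, and DESeq2 called 0. GAS5 had 8CA levels of 186 and 178 CPM in MV4-11 against 169 and 180 untreated, and 162 and 157 in KG-1a against 164 and 159.7 untreated, so the libraries overlapped. Its log2 changes of 0.058 (95% interval -0.038 to 0.15) and -0.019 (-0.12 to 0.086) bound any rise at 8 h below that at 24 h.

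With 8AA at 8 h, the counts called were 2 higher and 3 lower in MV4-11 (13.6% and 15.6% of all genes) and 3 higher and 3 lower in KG-1a (16.7% and 18%). The count of 2 higher in MV4-11 was near the background. SNHG8 rose in both lines, from 57.5 and 62.4 CPM to 68.6 and 72.1 in MV4-11 (log2 0.23, SE 0.073, edgeR adjusted p = 0.0276) and from 78.0 and 72.9 to 97.1 and 97.2 in KG-1a (0.37, SE 0.059, adjusted p = 0.000219). SNHG15 fell in both, from 54.9 and 55.4 to 44.6 and 48.5 in MV4-11 (-0.24, SE 0.071, adjusted p = 0.0172) and from 76.1 and 79.5 to 64.1 and 65.8 in KG-1a (-0.26, SE 0.067, adjusted p = 0.0069). SNHG1 fell from 164 and 166 to 142 and 152 in MV4-11 (-0.17, adjusted p = 0.00967) and from 335 and 326 to 303 and 296 in KG-1a (-0.14, adjusted p = 0.0317). ZFAS1 was called in MV4-11 (0.18, adjusted p = 0.0158), and SNHG6 (0.20, adjusted p = 0.00598) and EPB41L4A-AS1 (0.32, adjusted p = 0.0408) in KG-1a. The difference between lines was not called for any of these 3 (adjusted p = 0.578, 0.354 and 0.286). With 1 library left out in turn, every 8AA call at 8 h other than those of SNHG12 in both lines and of SNHG6 and SNHG8 in KG-1a was lost at least once. In MV4-11, SNHG8 (highest adjusted p 0.19) and ZFAS1 (0.15) lost theirs without untreated replicate A or 8AA replicate B, which left 0 hosts higher. SNHG15 (0.12) lost its call without either untreated library or 8AA replicate A, and SNHG1 (0.11) without 8AA replicate A, which left 1 lower. In KG-1a, SNHG1 (0.18) lost its call without any of the 4 libraries, SNHG15 (0.063) without untreated replicate B or 8AA replicate A, each of which left 1 lower, and EPB41L4A-AS1 (0.25) without either untreated library or 8AA replicate A. SNHG1 in KG-1a also lost its call with library-size scaling only (adjusted p = 0.0757), and EPB41L4A-AS1 in the fit of 24 libraries (0.0551) and in DESeq2's Wald test (0.158). GAS5, not called in either line, was called higher in MV4-11 in 5 of 9 alternative settings (0.11 to 0.15) and lower in KG-1a in 4 (-0.135 to -0.12).

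The chloro and amino analogs were compared directly at 1 μM at each time, which made 4 pairs, with p-values adjusted over all genes tested. At 24 h 8AA left the hosts lower than 8CA did. In MV4-11, 5 of the 9 were lower with 8AA and 0 higher, where 9.48% of all genes were called lower. At an unadjusted p under 0.05, 6 were lower and 1 higher, and DESeq2 called 4 lower and 0 higher. In KG-1a, 8 of the 9 were lower with 8AA and 0 higher, where 21.7% of all genes were called lower. At an unadjusted p under 0.05, 8 were lower and 0 higher, and DESeq2 called 7 lower and 0 higher.

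The widest gap between the analogs was that of GAS5 in KG-1a, where the 8AA libraries (189 and 174 CPM) lay far below the 8CA libraries (311 and 318). The log2 difference was -0.79 (SE 0.048, edgeR adjusted p = 3.82e-09), and without the 8AA replicates A and B in turn it was -0.85 and -0.74. In MV4-11 it was -0.24 (SE 0.044, adjusted p = 0.0014). SNHG5 differed by -0.65 in KG-1a (SE 0.0495, adjusted p = 6.4e-08) and by -0.21 in MV4-11 (SE 0.058, adjusted p = 0.0171). SNHG1 differed by -0.39 (SE 0.048, adjusted p = 9.4e-06) and -0.29 (SE 0.044, adjusted p = 0.000261). EPB41L4A-AS1 differed by -0.46 in KG-1a and -0.27 in MV4-11 (adjusted p = 0.00142 and 0.0354), and ZFAS1 by -0.38 and -0.29 (adjusted p = 0.00148 and 0.000841). SNHG8 (-0.22, adjusted p = 0.00599), SNHG15 (-0.19, adjusted p = 0.0374) and SNHG6 (-0.16, adjusted p = 0.0145) were called in KG-1a. In MV4-11 these 3 were not, at -0.19 (95% interval -0.34 to -0.038), 0.017 (-0.13 to 0.165) and -0.076 (-0.18 to 0.0295). For SNHG12 the analogs did not differ by the test in either line, with a difference of 0.16 in MV4-11 (0.029 to 0.30, adjusted p = 0.0788) and 0.0029 in KG-1a (-0.20 to 0.21). In MV4-11 the calls of SNHG5 and EPB41L4A-AS1 were lost without 8CA replicate A (adjusted p = 0.0584 and 0.0944), without 8CA replicate B (0.0726 and 0.129) and without 8AA replicate A (0.112 and 0.271), each of which left 3 lower, and SNHG8 was called without 8AA replicate B (log2 -0.32, adjusted p = 0.0112). In KG-1a the calls of SNHG6, SNHG8 and SNHG15 were lost without 8CA replicate A (adjusted p = 0.129, 0.0523 and 0.256), which left 5 lower, and that of SNHG15 without 8AA replicate B (-0.076, adjusted p = 0.307). The SNHG15 call was also lost with library-size scaling only (adjusted p = 0.153), upper-quartile factors (0.0855), 6 libraries (0.0941) and DESeq2's Wald test (0.0642), and that of SNHG6 with library-size scaling only (0.117) and 6 libraries (0.0559). Without 8AA replicates A and B of KG-1a in turn, the differences were -0.55 and -0.24 for ZFAS1, -0.72 and -0.59 for SNHG5, -0.47 and -0.32 for SNHG1, -0.47 and -0.45 for EPB41L4A-AS1, -0.31 and -0.14 for SNHG8 and -0.22 and -0.11 for SNHG6, all called. In MV4-11 EPB41L4A-AS1 was not called in the Wald test (adjusted p = 0.0824), and SNHG8 was called in 3 of 9 alternative settings (lowest adjusted p 0.0106).

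At 8 h fewer hosts differed between the analogs. In MV4-11 only SNHG1 was called, lower with 8AA at -0.17 (SE 0.044, edgeR adjusted p = 0.0288), where 6.66% of genes were called in either direction. In KG-1a SNHG1 was lower (-0.14, SE 0.048, adjusted p = 0.0422), and SNHG8 (0.27, SE 0.059, adjusted p = 0.00247) and SNHG6 (0.18, SE 0.050, adjusted p = 0.0125) were higher with 8AA, where 30.4% of genes were called in either direction. The count of hosts called in KG-1a was near that share. SNHG8 and SNHG6 stood higher with 8AA at 8 h and higher with 8CA at 24 h in that line. SNHG1 was lower with 8AA in all 4 pairs. Its 8 h calls were lost without either 8CA library or 8AA replicate A in MV4-11 and without any library of the pair in KG-1a (highest adjusted p 0.22 and 0.21), and in 3 of 9 and 2 of 9 alternative settings, and that of SNHG6 without 8CA replicate A or either 8AA library (highest 0.12).

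**Figure D3:**
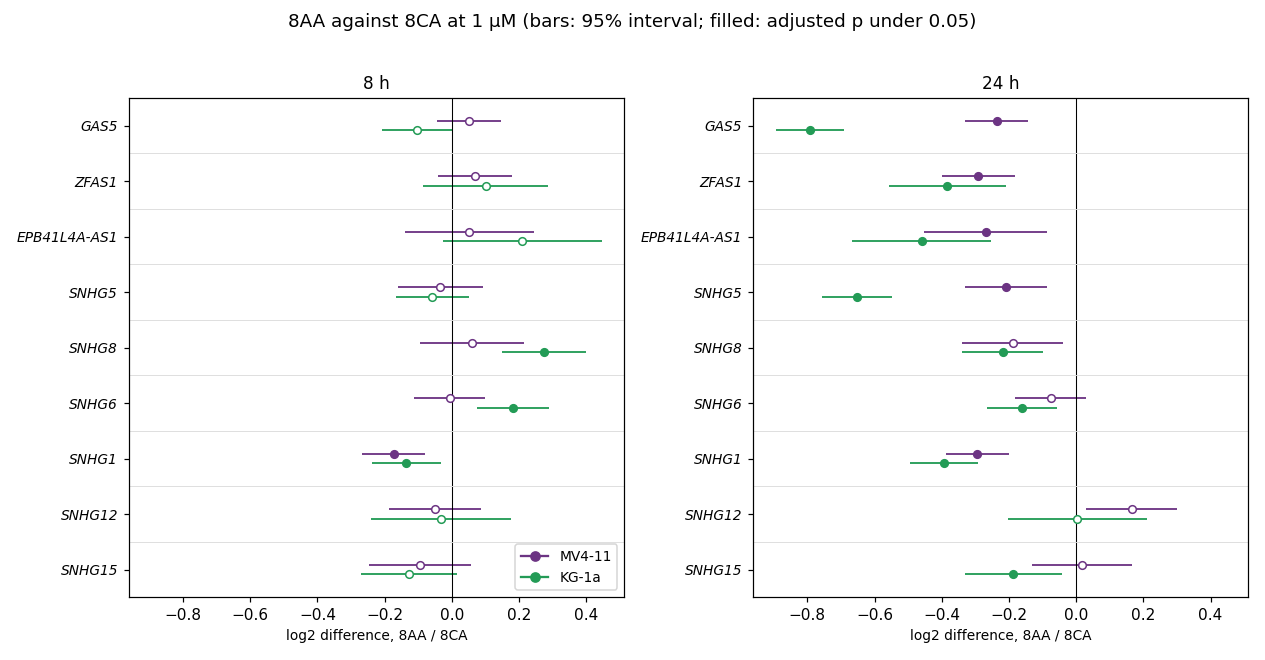
Log2 difference between 8AA and 8CA for each host at 8 h (left) and 24 h (right), with 95% intervals; purple is MV4-11 and green KG-1a, and filled points have an adjusted p under 0.05. Values left of 0 are lower with 8AA; at 24 h GAS5 in KG-1a reaches -0.79 and SNHG12 is not called in either line.

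The response to 8CA was larger at 24 h than at 8 h for most of the hosts that rose. The change in response from 8 h to 24 h was called higher for 4 hosts in MV4-11, where 6.48% of genes were called higher, namely EPB41L4A-AS1 (0.56, SE 0.126, edgeR adjusted p = 0.00659), ZFAS1 (0.51, SE 0.073, adjusted p = 0.000294), GAS5 (0.47, SE 0.063, adjusted p = 0.000187) and SNHG5 (0.36, SE 0.083, adjusted p = 0.00815). In KG-1a it was called higher for 7, where 11.2% of genes were, from SNHG1 (0.30, SE 0.0675) through SNHG6 (0.58), SNHG8 (0.59), SNHG5 (0.67), ZFAS1 (0.82) and GAS5 (0.86, SE 0.069) to EPB41L4A-AS1 (0.89, SE 0.160). Their adjusted p-values ran from 7.29e-07 for GAS5 to 0.00484 for SNHG1. SNHG12 and SNHG15 were not called in either line. With 8AA, 0 hosts were called in MV4-11, where 2.51% of genes were called higher (edgeR). At an unadjusted p under 0.05, 4 were higher and 0 lower, and DESeq2 called 0. In KG-1a 1 host was called higher with 8AA, near the 7.64% of all genes called higher. It was SNHG6 (0.23, SE 0.071, adjusted p = 0.0325). That call was lost without any of the untreated or 8 h 8AA libraries (highest adjusted p 0.15), and without replicate B of 8AA at 24 h the count was 3.

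Untreated cells moved little between the times. In MV4-11 edgeR called 0 of the 9 between 24 h and 8 h, where 5.54% of genes were called in either direction. At an unadjusted p under 0.05, 0 were higher and 1 lower, and DESeq2 called 0. In KG-1a SNHG5 was higher at 24 h (0.19, SE 0.052, adjusted p = 0.047), where 4.45% of genes were called in either direction, and the call was lost without any of the 4 libraries (highest adjusted p 0.24) and in DESeq2.

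The response to 8CA at 24 h was weaker in MV4-11 than in KG-1a for 4 hosts, where 11.2% of genes differed in either direction. The log2 differences (MV4-11 minus KG-1a) were -0.46 for EPB41L4A-AS1 (SE 0.143, edgeR adjusted p = 0.0367), -0.41 for SNHG6 (SE 0.071, adjusted p = 0.000398), -0.29 for GAS5 (SE 0.065, adjusted p = 0.00432) and -0.27 for SNHG5 (SE 0.074, adjusted p = 0.0179). EPB41L4A-AS1 lost its call when 7 of the 8 libraries were left out in turn, all but 8CA replicate B of KG-1a (highest adjusted p 0.17), and in DESeq2's Wald test. SNHG5 lost it without untreated replicate B or 8CA replicate A of MV4-11 or untreated replicate B of KG-1a (highest 0.17). With 8AA at 24 h the lines differed in SNHG6 (-0.32, SE 0.071, adjusted p = 0.00156) and in the other direction in GAS5 (0.27, SE 0.065, adjusted p = 0.00382), where 22.3% of genes differed in either direction. Without replicate B of KG-1a with 8AA at 24 h, the difference of GAS5 was 0.13 and not called (adjusted p = 0.136), and the counts became 0 higher and 4 lower. Without replicate A of that group 3 were higher. Without replicates A and B of that group in turn, the difference of SNHG6 was -0.27 and -0.45, called in both cases. GAS5 lost its call with no filter on low counts (adjusted p = 0.0607). GAS5 also differed with 8AA at 8 h (0.27, SE 0.066, adjusted p = 0.00815), where 11.1% of genes did, but was not called without untreated replicate A of MV4-11 or 8AA replicate B of KG-1a (highest adjusted p 0.056), nor with no filter on low counts (0.0865). The counts of hosts called between lines with 8AA, at 24 h and at 8 h, were near these shares of all genes (22.3% and 11.1%). With 8CA at 8 h 0 of the 9 differed in edgeR, at an unadjusted p under 0.05 or in DESeq2, where 1.15% of genes were called in either direction. SNHG12 was not called in any of the 4 differences between lines, which lay between -0.14 and 0.023.

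The levels of the hosts followed each other over the 24 libraries, centred within each line, apart from SNHG12 and SNHG15. Pearson's r of a host with the mean of the other 8 was 0.95 for SNHG5, 0.93 for GAS5, 0.92 for ZFAS1, 0.89 for EPB41L4A-AS1, 0.85 for SNHG6, 0.77 for SNHG8 and 0.60 for SNHG1. It was -0.19 for SNHG15 and -0.46 for SNHG12. These are descriptions over libraries that share treatments and controls. Among 8435 other genes with a mean log2 CPM of at least 3 in each line, the 10 whose profile was most like the mean of the 9 had r of 0.92 to 0.97. Of these 10, 3 are themselves non-coding snoRNA hosts, namely C6orf48 (r = 0.97), LRRC75A-AS1 (0.96) and SNHG7 (0.92). The translation initiation factors EIF4B (0.94) and EIF3E (0.94) were in the list too, and the others were SPNS3, PRPF6, CALCOCO2, CCNB1IP1 and ARID1B. C6orf48 changed by log2 0.68 and 1.09 with 8CA at 24 h in MV4-11 and KG-1a, and SPNS3 by 0.44 and 1.796.

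Other transcripts of the same pathway were read from lists. The table holds 13 other non-coding snoRNA hosts, of which 12 were tested. At 24 h MV4-11 had 4 higher and 3 lower with 8CA, and 3 higher and 2 lower with 8AA. KG-1a had 4 higher and 2 lower with 8CA, and 4 of each with 8AA (3 and 4 without 8AA replicate A, 5 and 3 without B). These were 25% to 33.3% of the list higher and 16.7% to 33.3% lower, beside 13.9% to 25.4% and 15.3% to 26.6% of all genes. Their median log2 fold change lay between -0.0057 and 0.083. Among them SNHG7 rose by 0.66 and 1.10 with 8CA in MV4-11 and KG-1a. DANCR fell by 0.36 and 0.78, and SNHG16 by 0.20 and 0.28 with 8CA and by 0.29 and 0.92 with 8AA, in the same order of lines. The 51 protein-coding hosts, most of them genes for ribosomal and other translation proteins, had medians between -0.0865 and 0.069. In MV4-11 7 were higher and 12 lower with 8CA, and 1 and 13 with 8AA. KG-1a had 14 higher and 10 lower with 8CA, and 2 and 20 with 8AA. The shares higher in MV4-11 and KG-1a were 13.7% and 27.5% with 8CA, beside 21.2% and 23.4% of all genes. With 8AA the shares higher were 1.96% and 3.92%, beside 13.9% and 25.4%. The shares lower with 8CA, 23.5% in MV4-11 and 19.6% in KG-1a, were near or under those of all genes (22.7% and 24%). With 8AA they were 25.5% and 39.2%, beside 15.3% and 26.6%. The last count turned on single libraries, with 1 higher and 37 lower without 8AA replicate A and 13 higher and 18 lower without B. Nucleolin (NCL), which works in ribosome assembly, fell by 0.42 and 0.50 with 8CA and by 0.38 and 0.80 with 8AA, and NOP56, a core box C/D protein, by 0.30 and 0.48 and by 0.25 and 0.84. RPL13A, host of the SNORD32A cluster, rose with 8CA by 0.21 and 0.40, and EEF2, the elongation factor that moves the ribosome along mRNA, by 0.29 and 0.60.

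The genes for proteins that bind snoRNAs were called lower with both drugs. Of 14 genes for box snoRNA proteins and their assembly factors, 0 were called higher in any of the 8 comparisons by edgeR, at an unadjusted p under 0.05 or by DESeq2, and at 24 h 11 were lower with 8CA in each line, 12 with 8AA in MV4-11 and 13 with 8AA in KG-1a (13 also without either 8AA library). These are 78.6% to 92.9% of the list, where 15.3% to 26.6% of all genes were called lower. In MV4-11 the list's median was -0.30 for 8CA and -0.23 for 8AA, and in KG-1a it was -0.37 and -0.53. RUVBL1, an ATPase of the assembly machinery, fell by 0.43 and 0.54 with 8CA, and NOP10, an H/ACA core protein, by 0.47 and 0.73. NOP58, a box C/D core protein, stood at -0.074 and -0.086 with 8CA and fell by 0.13 and 0.42 with 8AA. PIH1D1, an assembly factor, fell by 0.27 with 8CA in MV4-11 and stood at -0.11 in KG-1a. Of 10 NMD factors, 8 were higher with 8CA in MV4-11 and 7 in KG-1a at 24 h, with 0 lower by edgeR, at an unadjusted p under 0.05 or by DESeq2. That is 80% and 70% of the list, beside 21.2% and 23.4% of all genes. With 8AA 1 was higher and 1 lower in MV4-11, and 5 were higher in KG-1a, where the counts were 5 higher and 2 lower without 8AA replicate A and 5 and 1 without B. With all libraries, the 8AA shares in MV4-11 were 10% higher and 10% lower, beside 13.9% and 15.3% of all genes. In KG-1a 50% were higher, beside 25.4%. UPF3B rose by 0.51 and 0.65 with 8CA, and SMG9 by 0.47 and 0.56. SMG5 stood at 0.068 and 0.12 and SMG8 at 0.018 and 0.046 with 8CA. These are levels of the factors' mRNAs and not a measure of decay.

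Non-coding RNAs that host no snoRNA were read in the same way. Of 15 such RNAs in the table, 14 were tested, with 3 higher and 1 lower with 8CA in MV4-11, 6 and 2 in KG-1a, 4 and 0 with 8AA in MV4-11, and 7 and 2 in KG-1a at 24 h (8 and 1 without 8AA replicate A). The shares higher ran from 21.4% to 50%, beside 13.9% to 25.4% of all genes. The shares lower ran from 0% to 14.3%, beside 15.3% to 26.6%. With 8CA in MV4-11 the 21.4% higher was near the 21.2% of all genes. The nuclear RNAs MALAT1 (0.50 and 0.62 with 8CA) and NEAT1 (0.28 and 0.63) stood at the upper end, with NEAT1 not called in MV4-11 (adjusted p = 0.0812). MIR17HG, the precursor of the miR-17-92 cluster, was at -0.48 and -0.42 with 8CA and -0.42 and -0.92 with 8AA, called in KG-1a with both drugs. RMRP, the RNA of RNase MRP, was not called in any of the 4 comparisons. Of 23 tested mRNAs known for rapid turnover, MV4-11 had 4 higher and 6 lower with 8CA, and 2 higher and 6 lower with 8AA. KG-1a had 12 higher and 2 lower with 8CA, and 7 higher and 5 lower with 8AA (6 and 7 without 8AA replicate A, 7 and 3 without B). The share higher was 52.2% with 8CA in KG-1a, beside 23.4% of all genes. In the others it was from 8.7% to 30.4%, beside 13.9% to 25.4%. The shares lower were from 8.7% to 26.1%, beside 15.3% to 26.6%. BTG2 was at 0.33 and 0.77 with 8CA and at 0.020 and 1.39 with 8AA, while EGR1 was at -0.94 and -0.35 with 8CA and at -0.97 and -0.010 with 8AA. KLF6 was at 0.050 and 0.66 with 8CA and at -0.11 and 0.82 with 8AA, and IER3 at -1.43 and 0.58 and at -2.16 and 0.00061. BTG2 with 8AA in MV4-11 was not called, nor were KLF6 in MV4-11 or EGR1 and IER3 in KG-1a with either drug.

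**Figure D4:**
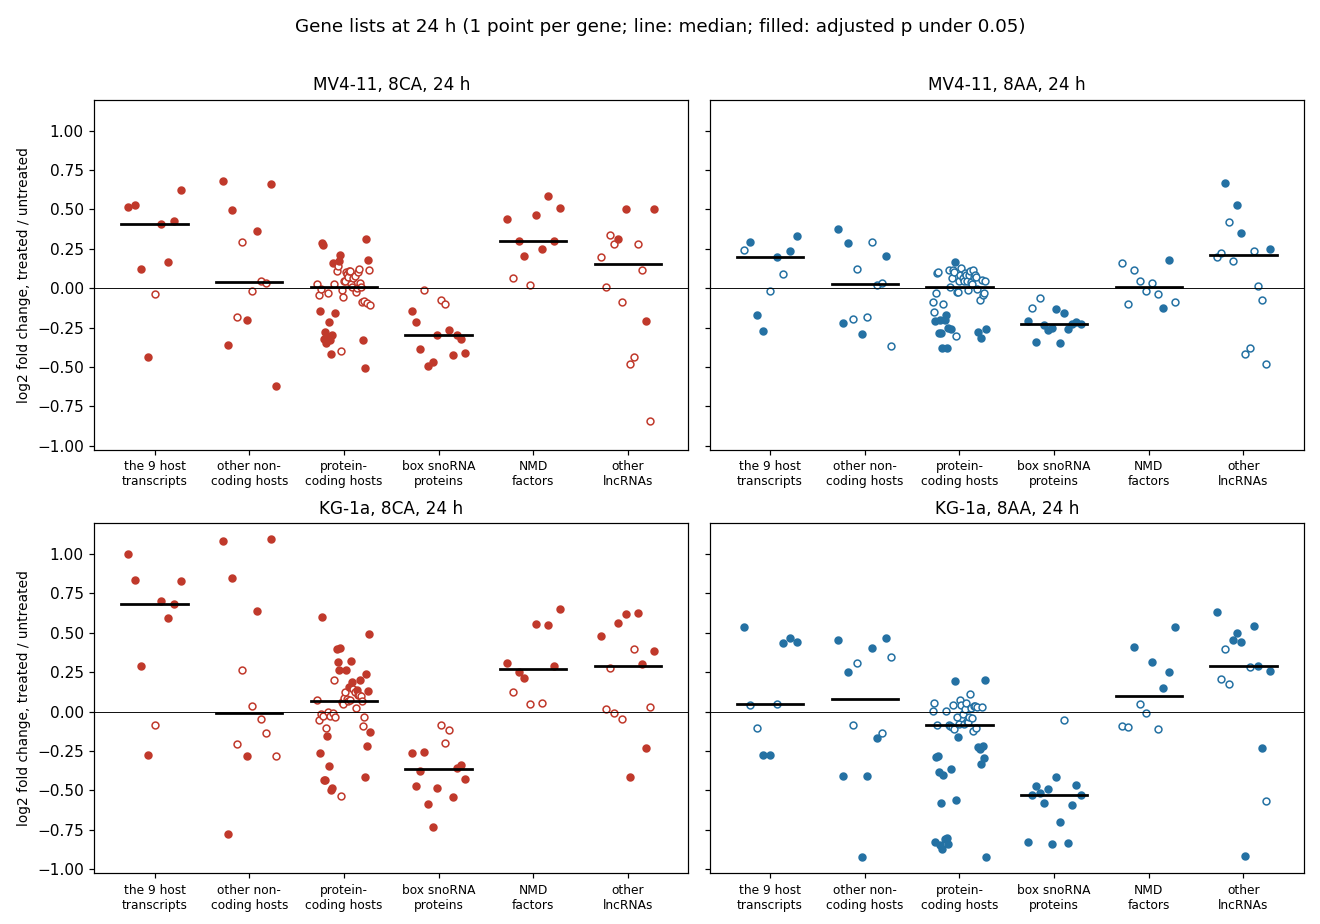
Log2 fold change at 24 h of each tested gene in 6 lists, 1 panel per line and drug. Points are genes, filled at an adjusted p under 0.05, and black lines are list medians. With 8CA the 9 host transcripts have medians of 0.41 in MV4-11 and 0.68 in KG-1a, while the box snoRNA proteins have medians of -0.30 and -0.37.

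Some hosts have a gene that starts close by on the opposite strand. ZNFX1 starts 41 bases from the start of ZFAS1 and stood at log2 0.11 and -0.042 with 8CA at 24 h in MV4-11 and KG-1a, where ZFAS1 stood at 0.62 and 0.83. ZBTB37 starts 95 bases from GAS5 and stood at 0.12 and -0.026, where GAS5 stood at 0.53 and 0.84. SLC3A2, a heavy chain of amino acid transporters, starts 124 bases from SNHG1 and had changes of the same sign as SNHG1 and of larger size at 24 h. It rose with 8CA at 24 h by 0.36 and 1.77 (edgeR adjusted p = 0.000101 and 1.4e-12) and fell with 8AA by 0.45 and 0.24 (adjusted p = 3.97e-05 and 0.000973), where SNHG1 stood at 0.12 and 0.29 and at -0.17 and -0.10. In KG-1a the fall of SLC3A2 with 8AA was 0.33 and 0.17 without 8AA replicates A and B in turn. SNHG1, not called there with both libraries, was then at -0.18 and -0.034. After 8 h of 8CA in KG-1a, SLC3A2 was already at 0.94 (adjusted p = 2.7e-08) and SNHG1 at -0.0056.

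The table also has 31 snoRNA rows inside the 9 hosts. Of the 31, 13 had no count in any library and 14 were tested, with mean counts of at most 75.1 per library, against 382 to 5172 for the hosts. Standard RNA-seq libraries recover RNAs this short poorly, and reads of a host that keeps its intron can fall on the same bases. The source of these reads was not tested. At 24 h 0 of the 14 were called higher by edgeR, at an unadjusted p under 0.05 or by DESeq2, with either drug in either line. With 8CA 0 were lower in MV4-11 and 4 in KG-1a, and with 8AA 0 and 5 (4 and 6 without 8AA replicates A and B in turn). The 28.6% and 35.7% lower in KG-1a stood beside 24% and 26.6% of all genes, so nothing is read from these counts. DESeq2 called 2 and 3 lower in KG-1a and 0 in MV4-11, where 0 and 1 were lower at an unadjusted p under 0.05. The 4 rows called by edgeR with 8CA in KG-1a included SNORD28 and SNORD30 in SNHG1, at -0.48 and -1.13 (adjusted p = 0.0093 and 0.00933). The others called were SNORA24 in SNHG8 at -1.01 (adjusted p = 0.00636) and SNORD50B in SNHG5 at -0.80 (adjusted p = 0.0493). Their hosts rose by 0.29, 0.68 and 0.70. The rows not called there ran from -0.62 (SNORD78) to 0.048 (SNORD77). Of the rows in GAS5, SNORD44 stood at -0.11 with 8CA and at -1.21 with 8AA in KG-1a (adjusted p = 0.707 and 0.000317). At 8 h edgeR called 0 of the 14 higher with either drug, and 0 lower with 8CA in either line. With 8AA it called 2 lower in MV4-11 and 6 in KG-1a, beside 15.6% and 18% of all genes. DESeq2 called 0 and 3 of the 14 lower there. The median of the 14 was below 0 in every comparison with untreated cells.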

How the data were processed

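RNA-seq was analysed for 24 libraries in 12 groups of 2. The authors deposited whole-number counts of reads per gene for 23354 gene rows. The submitters' processing notes name Trimmomatic, STAR 2.6.0, HTSeq 0.11.1 and edgeR, and the builds hg19 and hg38, without their roles. Strand use in counting is not given in the sources used here.

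The counts were filtered with filterByExpr (minimum count 10), scaled by TMM and fitted with edgeR 4.0.16 (quasi-likelihood) in R 4.3.3, with 12 libraries per line for drugs and times and 24 for differences between lines. P-values were adjusted by Benjamini-Hochberg over all genes tested, at 0.05. DESeq2 1.42.0, other scalings, filters, sample sets and a replicate block were alternatives. The test was checked on simulated counts.

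The hosts and all gene lists were chosen with earlier results of these data known. All hosts are named. From each other list the 2 highest and 2 lowest genes by mean log2 fold change at 24 h are named, besides the 10 genes most like the hosts, neighbouring genes and snoRNA rows. Read counts of 18633963 to 24520078 per library limit precision for low genes.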

Additional observations from a re-analysis of the deposited data

Results flagged for a closer look

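Results below are those in which the response of a host differed between times or between lines by a test of the difference itself (edgeR, adjusted p under 0.05). They are given as log2 differences.

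The response to 8CA was larger at 24 h than at 8 h in MV4-11 for SNHG5 (0.359), GAS5 (0.47), ZFAS1 (0.51) and EPB41L4A-AS1 (0.564). In KG-1a it was larger at 24 h for SNHG1 (0.298), SNHG5 (0.665), SNHG6 (0.578), SNHG8 (0.593), GAS5 (0.856), ZFAS1 (0.824) and EPB41L4A-AS1 (0.893). The response to 8AA was larger at 24 h in KG-1a for SNHG6 (0.234). This count of 1 was near the 7.64% of all genes called higher, and the call was lost without any untreated or 8 h 8AA library.

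Between lines (MV4-11 minus KG-1a), the response to 8CA at 24 h differed for SNHG5 (-0.272), SNHG6 (-0.41), GAS5 (-0.288) and EPB41L4A-AS1 (-0.464). The response to 8AA differed at 24 h for SNHG6 (-0.324) and GAS5 (0.268) and at 8 h for GAS5 (0.272). These counts with 8AA were near the shares of all genes called (22.3% and 11.1%). With 1 library left out in turn, all 11 time differences with 8CA kept their call (highest adjusted p 0.0359), as did the line differences of SNHG6 with 8CA (-0.475 to -0.338), GAS5 with 8CA (-0.327 to -0.265) and SNHG6 with 8AA (-0.451 to -0.255). The other 5 lost theirs at least once.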

How the results depend on the processing

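Of 1062 host values under alternative settings, 990 kept their direction and their side of the threshold, 31 lost the threshold, 27 passed it and 14 changed sign. Of 382 counts of hosts called, 349 stayed within 1.5 times the reported count. With single libraries left out, 504 of 604 host values and 209 of 256 counts did not change in this way. For genes other than the hosts, leaving out the libraries of KG-1a with 8AA at 24 h was added after seeing the data. SNHG16, NCL, NOP56, NOP58, MIR17HG, BTG2, KLF6, SLC3A2 and SNORD44 kept their call there without either library, and EGR1, not called, was at 0.063 and -0.081. A lone library left in a group was assumed to vary like the other groups. Where not given otherwise, the cause of a change was not tested. Counts are of the 9 hosts.

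With upper-quartile factors, a fit of 6 libraries or DESeq2's Wald test, 0 hosts were lower with 8CA in KG-1a at 24 h, and 1 was lower with 8AA, as with library size only. For 8CA at 8 h in KG-1a, 1 host was lower with no filter, with 6 or with 24 libraries. Between drugs at 8 h, 0 were lower with 8AA in MV4-11 with upper-quartile factors, 6 or 24 libraries, and in KG-1a 0 with library size only or upper-quartile factors and 3 with 6 libraries. The 8AA response in KG-1a was higher at 24 h than at 8 h for 3 hosts with library size only or upper-quartile factors and for 2 with no filter or 24 libraries. In untreated KG-1a 0 hosts were higher at 24 h with DESeq2 size factors, with no filter or in the Wald test. Between lines with 8AA at 24 h, 2 hosts were lower with library size only, 0 were higher and 2 lower with no filter, and 2 were lower with at least 10 counts in every library. At 8 h 0 were higher with no filter. The fit of 12 libraries could not be made for differences between lines.

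Values that changed sign were not called. SNHG15 in MV4-11 at 24 h was at 0.016 (library size only) and 0.0033 (upper-quartile factors) with 8CA, and at 0.033, 0.019 and 0.0013 (24 libraries) with 8AA. SNHG1 with 8CA at 8 h was at -0.0046 (DESeq2 size factors) and -0.0047 (Wald test) in MV4-11 and at 0.0064 (library size only) in KG-1a. EPB41L4A-AS1 with 8AA at 8 h in MV4-11 was at -0.0073 (DESeq2 size factors) and -0.0076 (Wald test). ZFAS1 with 8CA at 8 h in KG-1a was at -0.0019 (DESeq2 size factors), -0.0027 (upper-quartile factors) and -0.0012 (Wald test), and SNHG5 with 8AA at 8 h in KG-1a was at 0.013 (library size only).

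The libraries share only a letter across groups, and no source says that a letter marks a shared culture or day. Deviations of same-letter libraries correlated between -0.085 and 0.16. With a replicate block, 1 host was higher with 8CA at 8 h in MV4-11, 1 lower with 8CA at 8 h in KG-1a, 1 higher in the 8AA time difference of MV4-11, 2 higher in that of KG-1a and 1 lower in untreated MV4-11 between times.

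With 1 library left out in turn, the counts ran from 2 to 5 higher for MV4-11 8AA 24 h, 0 to 1 lower for KG-1a 8CA 24 h, 1 to 2 lower for KG-1a 8AA 24 h, 0 to 2 higher for MV4-11 8AA 8 h, 1 to 3 lower for MV4-11 8AA 8 h, 1 to 2 lower for KG-1a 8AA 8 h, 3 to 6 lower for MV4-11 8AA minus 8CA 24 h, 5 to 8 lower for KG-1a 8AA minus 8CA 24 h, 0 to 1 lower for MV4-11 8AA minus 8CA 8 h, 1 to 2 higher for KG-1a 8AA minus 8CA 8 h, 0 to 0 lower for KG-1a 8AA minus 8CA 8 h, 0 to 3 higher for KG-1a 8AA response 24 h minus 8 h, 0 to 0 higher for KG-1a untreated 24 h minus 8 h, 2 to 4 lower for MV4-11 minus KG-1a response to 8CA 24 h, 0 to 3 higher for MV4-11 minus KG-1a response to 8AA 24 h, 1 to 4 lower for MV4-11 minus KG-1a response to 8AA 24 h, 0 to 1 higher for MV4-11 minus KG-1a response to 8AA 8 h. Host values that changed sign in these fits had the following ranges. For MV4-11 8CA 24 h this was SNHG15 (-0.10 to 0.0338). For MV4-11 8AA 24 h this was SNHG15 (-0.10 to 0.0434). For KG-1a 8AA 24 h these were SNHG5 (-0.0188 to 0.11), GAS5 (-0.0179 to 0.10). For MV4-11 8CA 8 h these were SNHG1 (-0.0155 to 0.00552), EPB41L4A-AS1 (-0.14 to 0.0188). For MV4-11 8AA 8 h this was EPB41L4A-AS1 (-0.0653 to 0.0608). For KG-1a 8CA 8 h these were SNHG1 (-0.0254 to 0.0196), SNHG6 (-0.00781 to 0.0456), GAS5 (-0.0432 to 0.00588), ZFAS1 (-0.0657 to 0.0705). For KG-1a 8AA 8 h this was SNHG5 (-0.044 to 0.00321). For MV4-11 8AA minus 8CA 24 h this was SNHG15 (-0.0625 to 0.0773). For KG-1a 8AA minus 8CA 24 h this was SNHG12 (-0.14 to 0.15).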
